A study of Mus musculus with 18 samples.

Results

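Nptx1, Nptx2, Nptxr, Lsamp, Ntm, Opcml, Negr1, Elfn2 and Nrxn3 encode neuronal pentraxins, IgLONs and other synaptic adhesion proteins. They were taken by gene symbol from the 55487 genes in the deposited count tables of a study in alphaTC1 cells, and all 9 were found. They were chosen by gene family and by measured values, namely the lower counts of Nptx1, Lsamp and Elfn2 after knockdown of Smndc1, so for these 9 genes the values of the first experiment are a description, with no p-value.

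Neuronal pentraxins are secreted or membrane-bound proteins that assemble into complexes at synapses and gather glutamate receptors of the AMPA type on the cell opposite. IgLONs are small immunoglobulin-domain proteins held to the outer face of the cell membrane by a lipid anchor, and they bind one another between neurons during axon growth and synapse formation. Neurexins are presynaptic receptors whose ligands line the opposite membrane, and ELFN proteins are postsynaptic leucine-rich repeat proteins that bind presynaptic metabotropic glutamate receptors. Pancreatic islet cells share much of this secretory and synaptic gene set with neurons.

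The study lowered Smndc1, which encodes a spliceosome protein with a Tudor domain, in alphaTC1, a glucagon-producing cell line from a mouse islet tumour, and sequenced polyadenylated RNA from 18 libraries in 5 groups. In the first experiment, 3 libraries came from cells transduced with an shRNA against Smndc1 (shSmndc1) and 3 from cells with the empty vector (EV), both taken on day 5 after transduction. In the second, every culture also carried RIP-mCherry, a red fluorescent reporter under the rat insulin promoter. Cells with the shRNA were sorted into reporter-positive (positive cells, 4 libraries) and reporter-negative (negative cells, 4 libraries) fractions, and 4 further libraries carried the empty vector and the reporter (EV_RIP). The labels give no day for the second experiment and do not state that EV_RIP was sorted. All groups are the same cell line and carry a transduced vector. The labels do not say that replicates were separate cultures, so the spread behind each p-value is that between libraries and may be technical.

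Total counts per library were 37233208 to 66676008 in shSmndc1, 40781919 to 53455167 in EV, 34045268 to 48138634 in positive cells and 49345067 to 103048766 in EV_RIP. Negative replicates 1 to 4 held 38869563, 80757285, 8084574 and 23744051. Negative replicates 2, 3 and 4 also stood apart in Rn7sk, a small RNA without a poly(A) tail, at 18.6, 161 and 45.4 CPM (counts divided by the TMM-scaled library total, on the usual CPM scale), whereas the other libraries of that experiment lay between 2.44 and 14.2 CPM. Malat1, a nuclear RNA, lay at 287 to 670 CPM in positive and 450 to 688 CPM in negative libraries, all above the 109 to 286 CPM of EV_RIP, and at 1083 CPM in shSmndc1 replicate 3, against 174 to 478 CPM in the other libraries of the first experiment. Mitochondrial genes took 0.587% of counts in EV_RIP replicate 1 and 2.34% to 4.60% in the other libraries of the reporter experiment. The part of these measures in the results below was not tested. Smndc1 itself stood at 10.2 ± 0.545 CPM in shSmndc1 and 39.1 ± 3.54 CPM in EV (SD, n = 3 each), and averaged 20.1 ± 4.51 CPM among positive, 37.0 ± 9.51 CPM among negative and 44.5 ± 7.88 CPM among EV_RIP libraries (SD, n = 4 each). It was lower in shSmndc1 than in EV (log2 fold change -1.94, SE 0.13, adjusted p = 0.00145 by edgeR's quasi-likelihood test) and lower in positive cells than in EV_RIP (-1.15, SE 0.20, adjusted p = 0.00384). In negative cells the difference from EV_RIP was -0.27 (SE 0.20, adjusted p = 0.378), with 23.9 CPM in replicate 1 and 36.3 to 44.6 CPM in the others, against 37.6 to 54.9 CPM in EV_RIP.

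Gcg, the glucagon gene, lay between 3774 and 19422 CPM in all 18 libraries, while Gc, another alpha cell marker, was at 0 in all 18 and Pdx1, a beta cell transcription factor, at 0 in 16. Because the 9 genes are best known from neurons, 9 neuron markers were summed. The sum lay between 65.4 and 83.9 CPM in shSmndc1 and between 73.8 and 102 CPM in EV, and between 43.9 and 85.9 CPM in positive cells, 34.5 and 71.1 CPM in negative cells and 76.4 and 111 CPM in EV_RIP. Most of it came from Neurod6, a neuronal transcription factor, and Th, the enzyme of catecholamine synthesis. Rbfox3 and Gad1, also neuron markers, lay between 2.22 and 7.43 CPM and between 2.17 and 9.85 CPM. Slc17a7, Gad2, Tbr1 and Chat did not exceed 0.962 CPM in any library. Slc17a6, the transporter that defines many glutamatergic neurons, did not exceed 0.0794 CPM and was at 0 in 7 of 18 libraries. Of 6 neuron markers tested, Neurod6 fell in shSmndc1 (22.0 ± 5.02 CPM, against 36.2 ± 0.812 CPM in EV; log2 fold change -0.71, adjusted p = 0.0276, edgeR) and in negative cells (20.0 ± 6.85 CPM, against 40.5 ± 5.24 CPM in EV_RIP; -1.02, adjusted p = 0.0137, edgeR), and Tbr1 rose in negative cells (2.39, adjusted p = 0.0312, edgeR). With single libraries left out, these calls were lost in 4 of 6, 2 of 8 and 6 of 8 cases. Their part in the results below was not tested. In bulk RNA, fewer cells that express a gene and less RNA per cell cannot be told apart.

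By position (GRCm38, deposited coordinates identical to GENCODE M21), the genes fall into a compact and a very long class. Nptx1 (ENSMUSG00000025582, chr11:119538719-119547753, minus strand) spans 9.04 kb, Nptx2 (ENSMUSG00000059991, chr5:144545902-144557478, plus strand) 11.6 kb, Nptxr (ENSMUSG00000022421, chr15:79786351-79804766, minus strand) 18.4 kb and Elfn2 (ENSMUSG00000043460, chr15:78667331-78718771, minus strand) 51.4 kb. The IgLON genes and Nrxn3 are much longer. Lsamp (ENSMUSG00000061080, chr16:39984361-42181679, plus strand) spans 2197 kb, Nrxn3 (ENSMUSG00000066392, chr12:88722876-90334935, plus strand) 1612 kb, Opcml (ENSMUSG00000062257, chr9:27790775-28925410, plus strand) 1135 kb, Ntm (ENSMUSG00000059974, chr9:28994750-29963141, minus strand) 968 kb and Negr1 (ENSMUSG00000040037, chr3:156561794-157316445, plus strand) 755 kb. Exons cover 57.7% of Nptx1 but 0.783% of Lsamp and 0.782% of Nrxn3. All 5 long genes exceed 500 kb, a length reached by 139 of 13627 protein-coding genes tested in the reporter experiment (1.02%; median span 23.9 kb). Opcml and Ntm lie tail to tail with 69.3 kb between them, and Elfn2 and Nptxr are 1068 kb apart on chromosome 15. Nptxr shares 17.2% of its exonic bases with Npcd on the same strand, and Elfn2 and Nrxn3 share 3.28% and 3.48% with genes on the opposite strand, so that their counts are uncertain to that extent.

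RefSeq (GRCm38.p6) gave promoter windows for 6 of the 9 genes, all but Nptx1, Nptx2 and Nptxr. The 250 bases before the start of Elfn2 and Lsamp, which were low after knockdown, are shown with those of Negr1, whose level differed least in the first experiment, with matches to the GC box GGGCGG, read on either strand, in capitals. They lie at chr15:78718772-78719021 (minus strand) for Elfn2, chr16:39984114-39984363 (plus strand) for Lsamp and chr3:156561544-156561793 (plus strand) for Negr1.
Elfn2: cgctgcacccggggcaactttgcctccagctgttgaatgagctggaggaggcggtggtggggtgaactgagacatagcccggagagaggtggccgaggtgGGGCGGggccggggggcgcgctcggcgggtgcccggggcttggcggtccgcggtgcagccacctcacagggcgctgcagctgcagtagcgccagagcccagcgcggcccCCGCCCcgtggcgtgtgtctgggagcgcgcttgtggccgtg
Lsamp: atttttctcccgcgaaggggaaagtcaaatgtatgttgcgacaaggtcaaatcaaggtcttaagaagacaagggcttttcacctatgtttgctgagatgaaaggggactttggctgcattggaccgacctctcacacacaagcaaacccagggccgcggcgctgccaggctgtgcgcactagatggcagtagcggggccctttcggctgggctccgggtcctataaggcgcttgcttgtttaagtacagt
Negr1: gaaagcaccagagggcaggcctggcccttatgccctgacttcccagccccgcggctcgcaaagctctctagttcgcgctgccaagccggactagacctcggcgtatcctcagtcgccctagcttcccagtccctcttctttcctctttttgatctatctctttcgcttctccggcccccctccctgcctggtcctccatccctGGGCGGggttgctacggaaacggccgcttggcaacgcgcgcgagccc
Elfn2 has 25 CG dinucleotides and 73.6% GC, Lsamp 12 and 53.2%, and Negr1 19 and 63.6%, against medians of 6 and 52.4% over all promoters in the table. GGGCGG occurred in Elfn2 on both strands and in Negr1 on the plus strand, and 32.7% of 32851 promoters hold it on either strand. None of these 3 windows held TGACGTCA, TATAAA, GCGTGGGCG, GCGGGGGCG or CACGTG, which 1.55%, 12.4%, 0.536%, 2.57% and 6.02% of all promoters hold on either strand. The Lsamp window belongs to the first of its starts, and a further start in the table lies at base 41532826 of chromosome 16.

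Levels were first compared between genes per length, on the deposited FPKM scale, whose length basis is not given in the sources used here. Nptxr, the membrane-anchored pentraxin receptor, was highest in all 5 groups, at 24.5 ± 7.17 FPKM in shSmndc1 and 30.5 ± 4.83 FPKM in EV (SD, n = 3 each). Nptx1, a secreted pentraxin, came next in EV at 6.06 ± 2.28 FPKM, with values that overlapped those of Ntm at 4.95 ± 0.687 FPKM. In shSmndc1 it lay lower, at 1.05 ± 0.289 FPKM, after Ntm at 3.76 ± 0.675 FPKM, Negr1 at 2.79 ± 0.175 FPKM and Lsamp at 1.47 ± 0.400 FPKM, and its values overlapped those of Lsamp. In EV, Negr1 at 2.99 ± 0.813 FPKM, Lsamp at 2.75 ± 0.543 FPKM and Elfn2 at 1.67 ± 0.728 FPKM overlapped as neighbours. Elfn2 followed at 0.448 ± 0.0435 FPKM in shSmndc1. Nrxn3 lay at 0.0962 ± 0.00922 FPKM in shSmndc1 and 0.381 ± 0.219 FPKM in EV, and Opcml at 0.0239 ± 0.0142 FPKM in shSmndc1 and 0.0346 ± 0.00282 FPKM in EV. In positive cells Nptx1 stood at 1.37 ± 0.227 FPKM, below Ntm at 2.49 ± 0.491 FPKM and overlapping Negr1 at 1.41 ± 0.228 FPKM. In negative cells it stood at 2.28 ± 0.769 FPKM, overlapping Ntm at 2.66 ± 0.521 FPKM, and in EV_RIP at 6.02 ± 2.83 FPKM, above Ntm at 3.30 ± 0.450 FPKM without overlap (SD, n = 4 each). Nptxr, followed by Nptx1 and Ntm, thus lay at the top in both EV and EV_RIP, whose tables were normalised separately. On the FPKM scale Nptx1 and Ntm were told apart in EV_RIP but not in EV. Lsamp, Elfn2 and Nrxn3 in positive cells lay at 0.371 ± 0.0654, 0.287 ± 0.135 and 0.285 ± 0.0165 FPKM with overlap between neighbours. When counts were instead divided by the annotated exonic length, Nptx1 in positive cells (1.37 ± 0.232 CPM per kb) came above Ntm (1.15 ± 0.229 CPM per kb) with overlap, so that its place there depends on the length used. By that length Nptx1 in EV (6.09 ± 2.27 CPM per kb) lay above Ntm (2.28 ± 0.324 CPM per kb) without overlap. In shSmndc1 it came above Lsamp (1.07 ± 0.295, against 0.939 ± 0.249 CPM per kb) with overlap. In negative cells it came above Ntm (2.30 ± 0.778, against 1.23 ± 0.246 CPM per kb) with overlap.

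Among the pentraxins, Nptx1 had 6.73, 3.82 and 6.14 CPM in shSmndc1 and 18.1, 38.0 and 39.2 CPM in EV. The groups did not overlap, and the highest shSmndc1 library lay below the lowest EV library. In the second experiment it had 8.91, 6.15, 6.79 and 6.75 CPM in positive cells, 14.6, 9.17, 16.2 and 7.90 CPM in negative cells, and 22.5, 21.1, 29.8 and 53.4 CPM in EV_RIP. All positive and all negative libraries lay below all EV_RIP libraries, while positive and negative libraries overlapped. Nptxr had 141, 148 and 83.6 CPM in shSmndc1 and 148, 179 and 133 CPM in EV, with overlap. It had 114, 89.6, 86.4 and 88.8 CPM in positive cells, 110, 86.1, 96.0 and 76.8 CPM in negative cells, and 116, 124, 104 and 127 CPM in EV_RIP. Only 1 positive and 1 negative library, replicate 1 in each, reached the EV_RIP range. Nptx2, the activity-regulated pentraxin of neurons, had 1 count in all 18 libraries together, in positive replicate 2. The limit that a count of 0 allows (3 counts) was 0.0294 to 0.361 CPM per library, so Nptx2 was not detectable above that level.

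Among the IgLONs, Lsamp, the limbic system-associated membrane protein, had 19.9, 17.1 and 11.5 CPM in shSmndc1 and 23.5, 34.4 and 32.6 CPM in EV, without overlap. It had 4.99, 3.32, 3.68 and 4.25 CPM in positive cells, 8.74, 7.46, 26.3 and 8.50 CPM in negative cells, and 10.5, 6.97, 10.6 and 38.9 CPM in EV_RIP. Every positive library lay below every negative and every EV_RIP library. Negative replicate 3 and EV_RIP replicate 4 were far above the rest of their groups. Ntm, neurotrimin, had 16.9, 13.4 and 12.2 CPM in shSmndc1 and 17.9, 16.1 and 21.3 CPM in EV. Negr1, a growth regulator of neurons, had 19.7, 19.5 and 17.8 CPM in shSmndc1 and 14.4, 25.1 and 21.1 CPM in EV. Values of both genes overlapped between these groups. In the second experiment Ntm lay between 7.39 and 11.1 CPM in positive cells, 7.98 and 12.5 CPM in negative cells and 10.1 and 14.1 CPM in EV_RIP. Negr1 lay between 8.28 and 11.7 CPM in positive cells, 9.53 and 12.9 CPM in negative cells and 10.2 and 16.4 CPM in EV_RIP. Both genes overlapped between all groups of that experiment. Opcml, the opioid-binding IgLON, had 259 counts in all 18 libraries together. It reached 0.628 CPM at most, and negative replicate 3 held 0 counts, which allows up to 0.361 CPM at its depth.

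Elfn2 had 3.62, 3.20 and 3.96 CPM in shSmndc1 and 6.93, 18.01 and 14.9 CPM in EV, without overlap. It had 3.87, 1.57, 1.99 and 1.67 CPM in positive cells, 7.09, 3.00, 6.25 and 3.06 CPM in negative cells, and 7.00, 4.51, 8.39 and 14.0 CPM in EV_RIP. Positive libraries lay below all EV_RIP libraries but overlapped the negative ones, and negative and EV_RIP libraries overlapped. Nrxn3, a neurexin, had 0.949, 1.02 and 1.17 CPM in shSmndc1 and 2.33, 6.73 and 3.23 CPM in EV, again without overlap. In the reporter experiment it had 3.16, 3.24, 2.97 and 2.87 CPM in positive cells, 3.09, 2.78, 2.40 and 3.26 CPM in negative cells, and 2.81, 4.22, 3.81 and 4.06 CPM in EV_RIP, and all groups overlapped. EV_RIP replicate 4 was the highest EV_RIP library for Nptx1, Nptxr, Lsamp, Ntm, Negr1 and Elfn2.

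**Figure D1:**
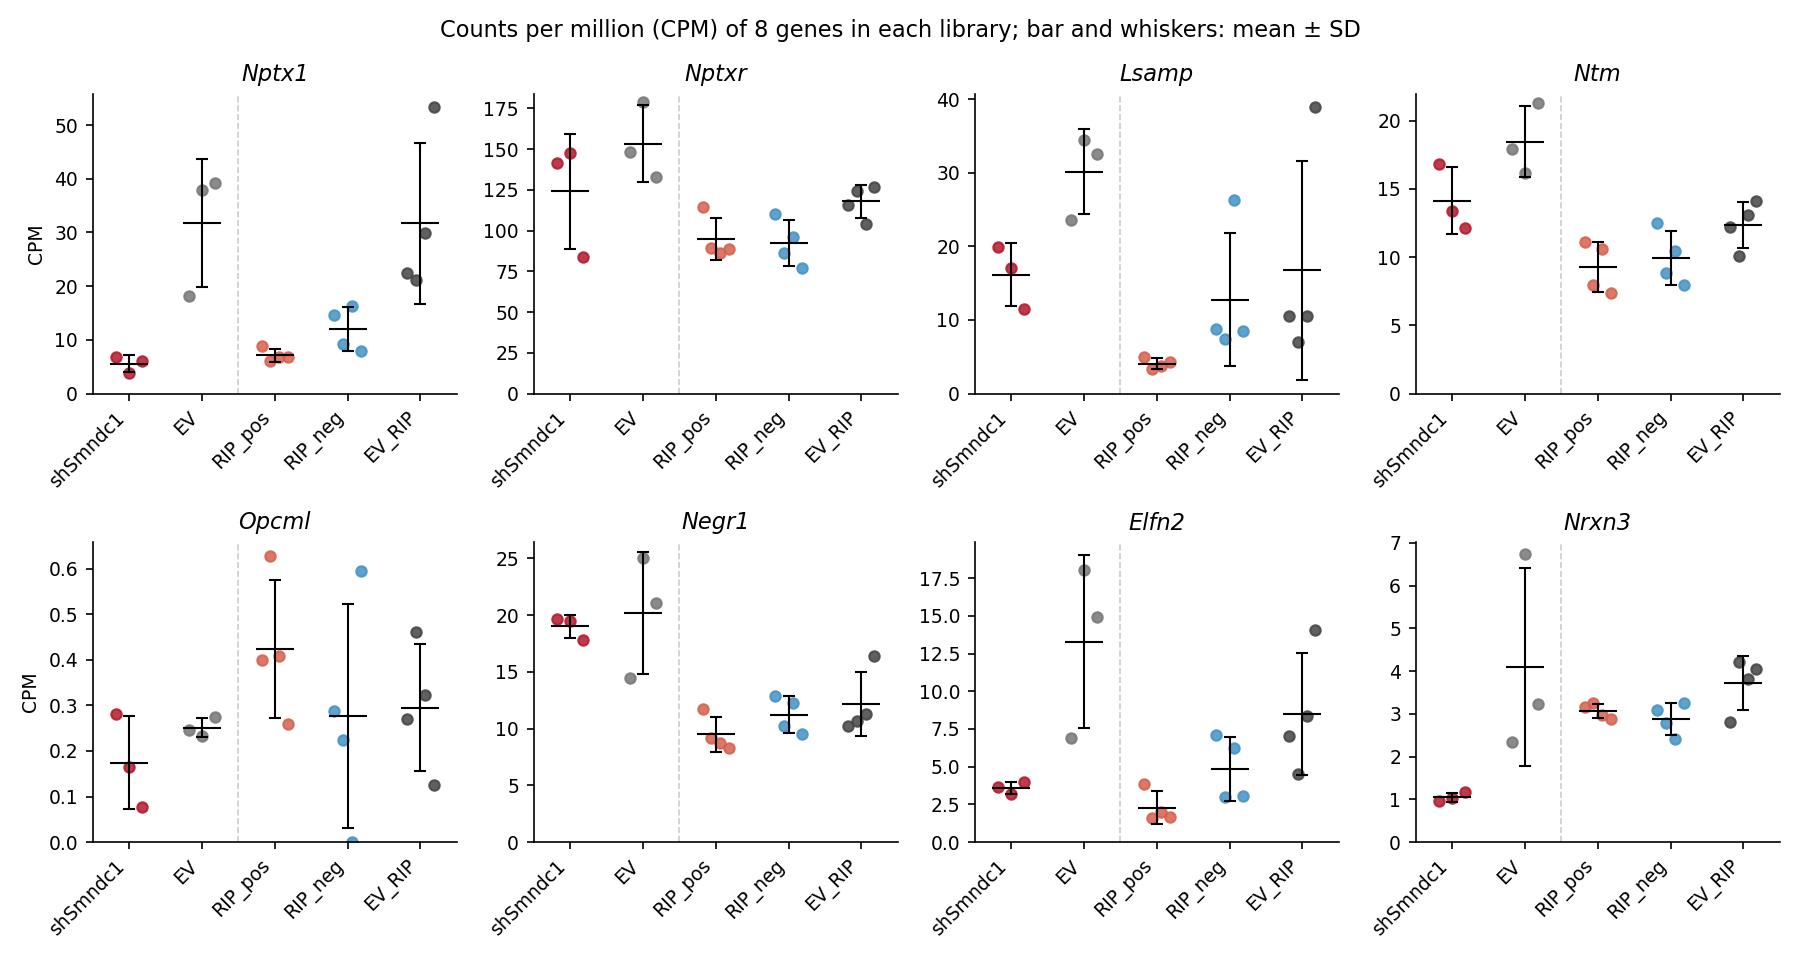
CPM of 8 of the 9 genes (Nptx2 is left out for lack of counts) in each of the 18 libraries; points are libraries, bars are the group mean ± SD, and each panel has its own axis from 0. Groups run from shSmndc1 and EV to positive, negative and EV_RIP cells. Nptx1 lies at 3.82 to 6.73 CPM in shSmndc1 against 18.1 to 39.2 CPM in EV, and the high Lsamp libraries are negative replicate 3 at 26.3 CPM and EV_RIP replicate 4 at 38.9 CPM.

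In shSmndc1 against EV, 8 of the 9 genes passed the filter on low counts. All 8 had a negative log2 fold change. The fit over all genes placed 4 of them under an adjusted p of 0.05 as lower, beside 7.5% of 18202 genes tested (14.7% in either direction), and the same 4 had groups without overlap, beside 19.8% of genes in that direction. Since values of this comparison chose the genes, these counts test nothing about them and nothing is read from them. Nptx1 had the lowest of the 8 values, a log2 fold change of -2.52 (SE 0.32), or 5.74-fold lower, at rank 13 from the lowest of all genes. Nrxn3 (-1.97, SE 0.39), Elfn2 (-1.89, SE 0.32) and Lsamp (-0.90, SE 0.22) were the others in that count. Opcml (-0.51, SE 0.50), Ntm (-0.38, SE 0.17), Nptxr (-0.30, SE 0.22) and Negr1 (-0.09, SE 0.19) were not in it. The 4 IgLONs thus ran from Lsamp down to Negr1, whose value became 0.10 without EV replicate 2. The count was 1 without EV replicate 3 (Nptx1), 2 without shSmndc1 replicate 2 (Nptx1 and Elfn2) and 3 without EV replicate 2 (all but Lsamp), where 181, 627 and 550 of all genes were under the threshold.

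In positive cells against EV_RIP, 3 of 8 tested genes fell, Nptx1, Lsamp and Elfn2, where 8.92% of 18897 genes tested were called lower and 17.4% in either direction. Their groups did not overlap, as for 11.7% of genes in that direction. The genes were chosen partly for low values after knockdown without an experiment being named, so these adjusted p-values place each gene in the fit over all genes and are not independent evidence. Nptx1 averaged 7.15 ± 1.21 CPM among positive and 31.7 ± 14.96 CPM among EV_RIP libraries (SD, n = 4 each; log2 fold change -2.15, SE 0.30, adjusted p = 0.00134, edgeR) and was called in 15 of 15 alternatives. Elfn2 averaged 2.27 ± 1.08 CPM among positive and 8.49 ± 4.03 CPM among EV_RIP libraries (-1.89, SE 0.40, adjusted p = 0.00853, edgeR) and was also called in 15 of 15. Lsamp averaged 4.06 ± 0.729 CPM among positive and 16.7 ± 14.9 CPM among EV_RIP libraries (-2.04, SE 0.51, adjusted p = 0.0174, edgeR). Its value was -1.19 without EV_RIP replicate 4 (adjusted p = 0.0482, edgeR), -1.20 without that library and negative replicate 3 (adjusted p = 0.00822, edgeR), and its call was lost without positive replicate 2 (-1.94, adjusted p = 0.0588, edgeR); over its 15 alternatives the adjusted p ranged from 0.000226 to 0.0588.

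The other IgLONs, Nptxr and Nrxn3 did not pass in positive cells. The log2 fold change was -0.42 for Ntm (SE 0.18, adjusted p = 0.125), -0.35 for Negr1 (SE 0.18, adjusted p = 0.180), -0.32 for Nptxr (SE 0.13, adjusted p = 0.0964) and -0.28 for Nrxn3 (SE 0.19, adjusted p = 0.298, all by edgeR). Opcml had a positive value of 0.49 (SE 0.52, adjusted p = 0.539, edgeR). The value of Nrxn3 was thus -1.97 in the first experiment and -0.28 here, and whether they differ was not tested. The median log2 fold change of the 8 genes was -0.38, against 0.0011 over all genes tested. Low values after knockdown took part in the choice of the genes, so this median is a description and tests nothing.

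In negative cells against EV_RIP, 1 of 8 genes fell, Nptx1, where 5.69% of all genes tested were called lower, 8.17% higher and 13.9% in either direction. Its groups did not overlap, as for 7.2% of genes in that direction. It stood at 11.97 ± 4.06 CPM in negative cells and 31.7 ± 14.96 CPM in EV_RIP (log2 fold change -1.42, SE 0.29, adjusted p = 0.0136, edgeR), in cells in which Smndc1 did not pass the test. The call was lost without negative replicate 2 (-1.31, adjusted p = 0.0514, edgeR), without negative replicate 4 (-1.27, adjusted p = 0.0584, edgeR) and without negative replicates 3 and 4 together (-1.43, adjusted p = 0.172, edgeR), over a range of adjusted p from 0.000107 to 0.172 in 16 alternatives. Elfn2 had -0.83 (SE 0.39, adjusted p = 0.155), and Lsamp -0.44 (SE 0.49, adjusted p = 0.559, both by edgeR), a value that turned to 0.39 without EV_RIP replicate 4. Nptxr had -0.35 (adjusted p = 0.0745), Nrxn3 -0.36 (adjusted p = 0.201), Ntm -0.31 (adjusted p = 0.249), Negr1 -0.12 (adjusted p = 0.679) and Opcml 0.0044 (adjusted p = 0.997, all by edgeR). Both reporter comparisons share the EV_RIP libraries, so their values are not independent of each other. The way the genes were chosen limits these values as it does those of positive cells.

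**Figure D2:**
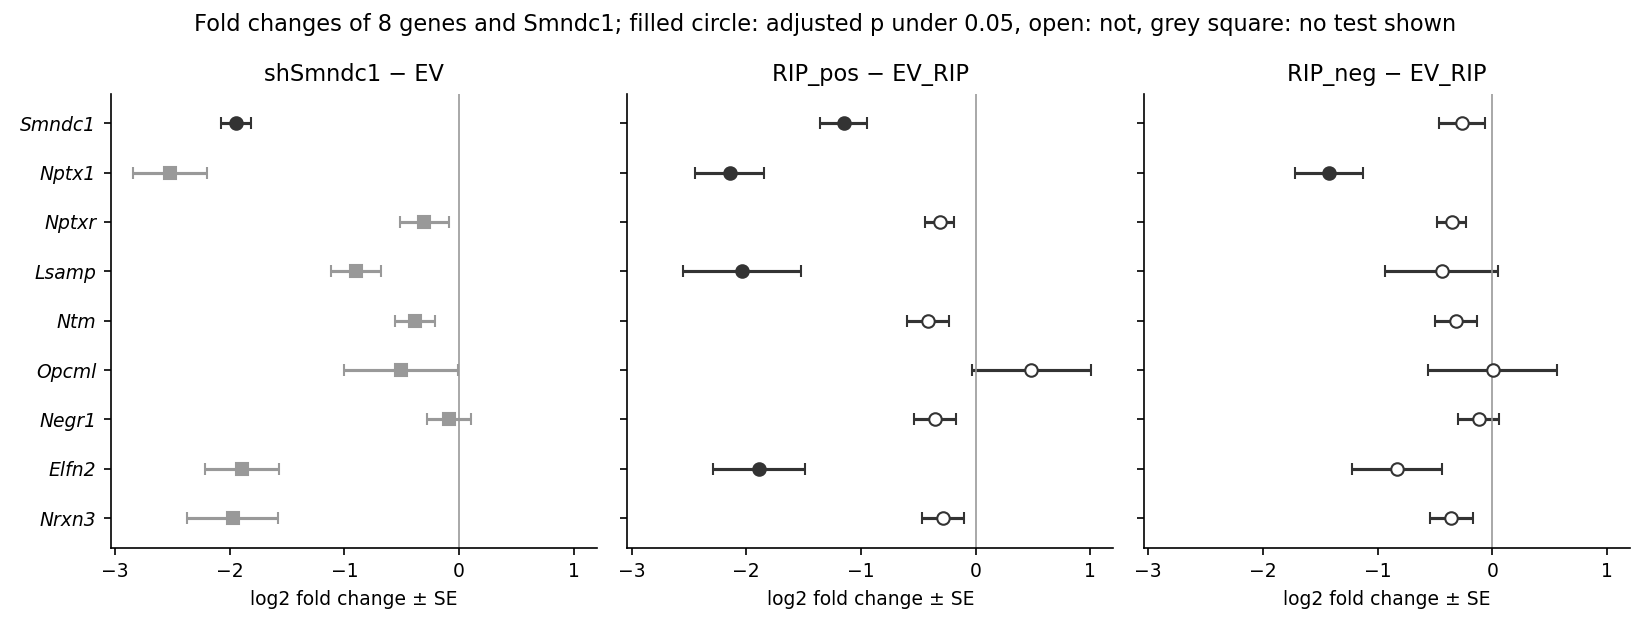
Log2 fold change ± SE (edgeR) of Smndc1 and 8 of the 9 genes in shSmndc1 against EV, positive cells against EV_RIP and negative cells against EV_RIP; filled circles have an adjusted p under 0.05, open circles do not, and the vertical line marks no difference. Grey squares are the genes' values in the first comparison, which took part in their choice and are shown with no test. Nptx1 lies at -2.52, -2.15 and -1.42 and Nrxn3 at -1.97, -0.28 and -0.36.

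Positive and negative cells were then set against each other. Low values after knockdown took part in the choice of the genes, which limits these values too. With all 12 libraries in the fit and no block, edgeR called 0 genes (0% of 18897), 2314 had an unadjusted p under 0.05 (12.2%) and DESeq2 called 315. The unadjusted p was 0.00755 for Lsamp (log2 fold change -1.59, SE 0.51, adjusted p = 0.245), 0.0193 for Elfn2 (-1.06, SE 0.40, adjusted p = 0.328) and 0.0279 for Nptx1 (-0.72, SE 0.30, adjusted p = 0.351, all by edgeR). Of the 8 genes, Lsamp alone had all positive libraries below all negative ones, as did 3.25% of all genes.

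Same-numbered positive and negative libraries had correlations across genes of 0.620, 0.355, 0.136 and 0.311 in their deviations from the group means. Libraries with different numbers had -0.474 to 0.281. The numbers were taken as pairs on this ground alone, which is weak for pairs 3 and 4. In the fit of those 8 libraries with the replicate block, edgeR called Lsamp lower in positive cells (-1.42, SE 0.26, adjusted p = 0.00463), as well as Elfn2 (-1.06, SE 0.20, adjusted p = 0.00571) and Nptx1 (-0.68, SE 0.16, adjusted p = 0.0188), where 4.72% of 17994 genes tested were called lower, 3.71% higher and 8.43% in either direction. With the block over all 12 libraries, 78 genes and none of these 3 were called, so these calls depend on which libraries enter the fit. The 3 genes are those named for low values after knockdown, so these adjusted p-values and the pair ratios are not independent evidence. The ratio of positive to negative CPM in pairs 1 to 4 was 0.571, 0.445, 0.140 and 0.501 for Lsamp, 0.546, 0.524, 0.318 and 0.545 for Elfn2, and 0.610, 0.671, 0.418 and 0.855 for Nptx1. Each was below 1 in 4 of 4 pairs and lowest in pair 3, the pair of the shallow negative library. Smndc1 moved with them, at 0.695, 0.516, 0.440 and 0.566, and its part in the result was not tested. Negr1 was also lower in 4 of 4 pairs, at 0.911, 0.904, 0.714 and 0.869, and did not pass (-0.23, SE 0.13, adjusted p = 0.296 with the block, edgeR). Ntm (-0.11, adjusted p = 0.652), Nptxr (0.04, adjusted p = 0.805), Nrxn3 (0.08, adjusted p = 0.836) and Opcml (0.59, adjusted p = 0.545) did not pass either in edgeR with the block.

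**Figure D3:**
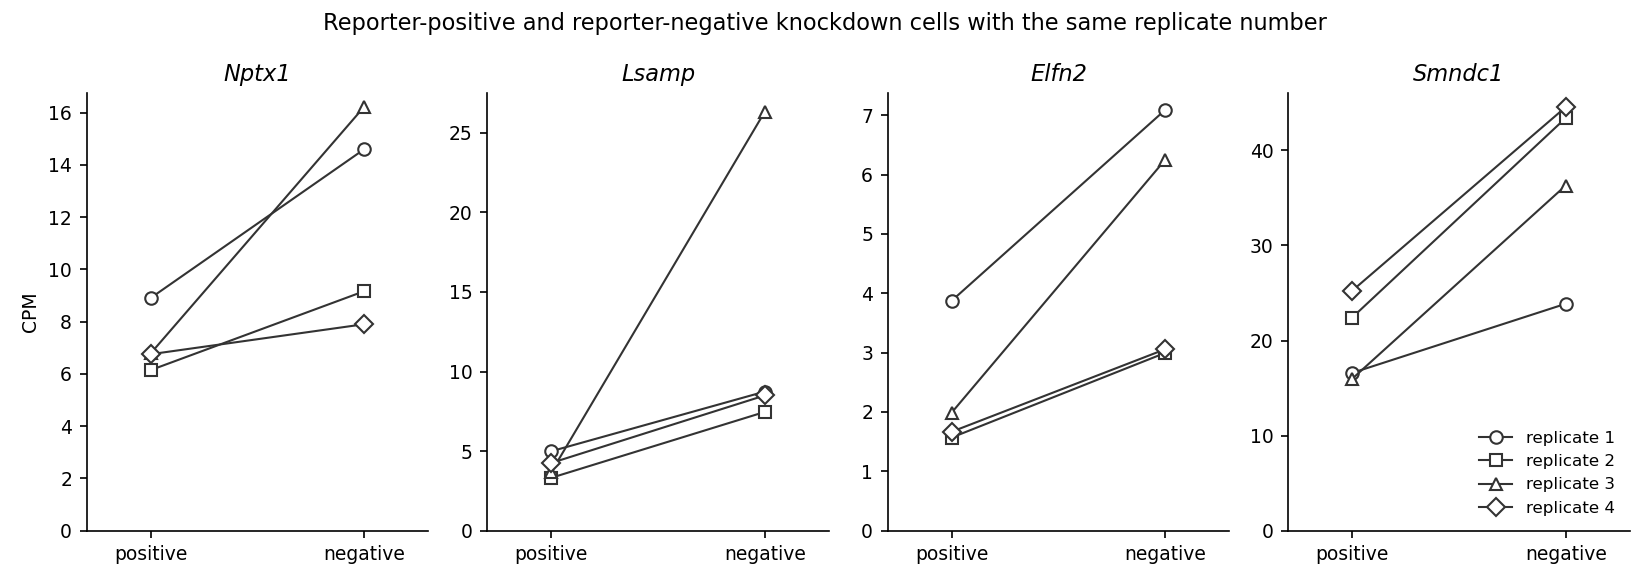
CPM of Nptx1, Lsamp, Elfn2 and Smndc1 in the 4 same-numbered pairs of positive (left) and negative (right) libraries; each line joins 1 pair. All lines rise toward the negative library, and for Lsamp the steepest is pair 3, whose negative library is at 26.3 CPM against 7.46 to 8.74 CPM in the other negative libraries.

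Partners of these proteins were described from 6 lists that hold 115 further genes. In shSmndc1 against EV, 15 of 72 tested genes rose (20.8%) and 5 fell (6.94%), where 7.22% and 7.5% of all genes were called higher and lower. In positive cells against EV_RIP, 13 of 75 rose (17.3%) and 3 fell (4%), beside 8.47% and 8.92% of all genes. In negative cells 1 of 75 rose and 1 fell, beside 8.17% and 5.69% of all genes. Of protein-coding genes alone, 8.97%, 8.92% and 9.08% were called higher and 8.63%, 10.9% and 6.86% lower in the same order of comparisons. The counts depended on single libraries. With each left out in turn, 1 to 20 rose and 0 to 7 fell in shSmndc1 (1 and 0 without EV replicate 3, 5 and 2 without shSmndc1 replicate 2, 6 and 1 without EV replicate 2), and 4 to 11 rose and 1 to 4 fell in positive cells (4 and 1 without positive replicate 2, 5 and 4 without positive replicate 1, 6 and 1 without EV_RIP replicate 1). In negative cells 0 to 2 rose and 0 to 7 fell. Without negative replicate 1, 1 rose and 7 fell (9.33% lower, beside 14.2% of all genes in that fit). With the replicate block 2 rose and 6 fell (8% lower, beside 11.5% of all genes). The share of all genes called lower also moved in the other comparisons. It was 0.587%, 1.57% and 1.62% in the shSmndc1 fits just named and 3.14%, 8.87% and 4.30% in those of positive cells. The share of all genes called higher in the fits with libraries left out is not given here. The numbers that rose in those fits therefore cannot be set against it. With single libraries left out, Cadm4 in shSmndc1 and Cadm4, Igsf9b, Slitrk6, Cbln2 and Tenm4 in positive cells kept their calls throughout, and every other partner gene named as called lost it without at least 1 library. Between positive and negative cells, 0 of 75 were called without the block, 1 rose and 0 fell of 75 with the block over all 12 libraries, and 17 rose and 2 fell of 73 with the block over the 8 libraries, where 3.71% and 4.72% of all genes were called higher and lower.

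Of the pentraxin superfamily and the partners of pentraxins, 7 of 15 genes were tested in the first experiment and none was called. AMPA receptor subunits were present, with Gria2 at 16.7 ± 5.55 CPM in shSmndc1 and 23.1 ± 4.95 CPM in EV (log2 fold change -0.47, adjusted p = 0.230, edgeR). Adam17, a protease known to cleave the pentraxin receptor, stood at 37.8 ± 2.78 CPM in shSmndc1 and 36.5 ± 1.37 CPM in EV. In positive cells 1 of 8 rose, Cacng4, an AMPA receptor auxiliary subunit (13.7 ± 2.61 CPM, against 9.26 ± 2.09 CPM in EV_RIP; 0.56, adjusted p = 0.0461, edgeR), a call lost with 7 of 8 libraries left out in turn.

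Among neurexins, neuroligins and neurexin ligands, 5 of 18 tested rose and 2 fell in shSmndc1. Among those that fell was Cbln3, a cerebellin that bridges neurexins to their partners (6.02 ± 1.65 CPM, against 14.4 ± 2.84 CPM in EV; log2 fold change -1.27, adjusted p = 0.0134, edgeR). Nrxn2, a neurexin, did not pass in shSmndc1 (113 ± 23.9 CPM, against 79.1 ± 5.23 CPM in EV; 0.51, adjusted p = 0.0564, edgeR). The higher genes in shSmndc1 included Nxph1, a secreted neurexin ligand (0.80, adjusted p = 0.0161), Dag1, dystroglycan (0.68, adjusted p = 0.0162), and Clstn3, a calsyntenin (0.56, adjusted p = 0.0225, all by edgeR). In positive cells 2 of 19 rose and 1 fell. The higher ones were Cbln2 (0.635 ± 0.206 CPM, against 0.108 ± 0.0526 CPM in EV_RIP; 2.47, adjusted p = 0.00384, edgeR), which was kept whichever library was left out, and Lrrtm2, a leucine-rich repeat ligand (1.37, adjusted p = 0.0470, edgeR).

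Among leucine-rich repeat synaptic proteins other than Elfn2, 4 of 14 tested rose and 0 fell in shSmndc1, and 4 of 15 rose and 0 fell in positive cells. In shSmndc1 these were Lrfn4 (67.5 ± 1.39 CPM, against 42.4 ± 3.63 CPM in EV; log2 fold change 0.67, adjusted p = 0.0103), Lrrc4 (2.77 ± 0.635 CPM, against 0.974 ± 0.0787 CPM in EV; 1.498, adjusted p = 0.0128), Lrrc4b (1.98, adjusted p = 0.0240) and Lrfn1 (0.65, adjusted p = 0.0325, all by edgeR), which encode postsynaptic adhesion proteins. In positive cells they were Slitrk6 (3.03 ± 1.28 CPM, against 0.641 ± 0.503 CPM in EV_RIP; 2.192, adjusted p = 0.00908), Slitrk1 (3.09 ± 0.190 CPM, against 1.49 ± 0.245 CPM in EV_RIP; 1.05, adjusted p = 0.0167), Flrt2 (1.67, adjusted p = 0.0259) and Elfn1 (1.54, adjusted p = 0.0441, all by edgeR). Elfn1, the paralogue of Elfn2, averaged 0.379 ± 0.197 CPM among positive and 0.129 ± 0.0603 CPM among EV_RIP libraries, and its call was lost in 7 of 8 libraries left out. In shSmndc1 it did not pass (0.81, adjusted p = 0.189, edgeR). None of the 4 group III metabotropic glutamate receptors, which ELFN proteins bind, had enough counts to be tested.

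Among immunoglobulin-type neural adhesion proteins other than the 4 IgLONs, 6 of 24 tested rose and 1 fell in shSmndc1 and likewise 6 and 1 in positive cells. Cadm4, a SynCAM family member, rose in both, at 44.4 ± 4.10 CPM in shSmndc1 and 19.1 ± 2.59 CPM in EV (log2 fold change 1.22, SE 0.14, adjusted p = 0.00525) and at 26.7 ± 3.51 CPM among positive and 16.9 ± 2.68 CPM among EV_RIP libraries (0.66, SE 0.16, adjusted p = 0.0134, both by edgeR), and kept both calls with each library left out in turn. Ptprf, a receptor tyrosine phosphatase, rose by 0.85 in shSmndc1 (adjusted p = 0.00842) and 0.71 in positive cells (adjusted p = 0.0260, both by edgeR). Mdga1, which binds neuroligins, rose in shSmndc1 (1.34, adjusted p = 0.0160), as did Nectin3 (0.49, adjusted p = 0.0225, both by edgeR). Igsf9b rose in positive cells (56.7 ± 8.23 CPM, against 33.2 ± 6.28 CPM in EV_RIP; 0.77, adjusted p = 0.00939) and in negative cells (54.2 ± 10.4 CPM, against the same EV_RIP libraries; 0.71, adjusted p = 0.0183, both by edgeR), and Nrcam in positive cells (0.99, adjusted p = 0.0212, edgeR). The gene of this list that fell in shSmndc1 and in positive cells was Sdk1, a sidekick adhesion protein, singled out after its values were seen. It stood at 73.5 ± 6.54 CPM in shSmndc1 and 106.6 ± 19.6 CPM in EV (-0.54, SE 0.15, adjusted p = 0.0451) and averaged 34.7 ± 9.45 CPM among positive and 65.3 ± 18.5 CPM among EV_RIP libraries (-0.91, SE 0.26, adjusted p = 0.0285, both by edgeR), calls lost with 4 of 6 and 6 of 8 libraries left out. Iglon5, the remaining IgLON, was singled out after its values were seen. It stood at 16.4 ± 4.26 CPM in shSmndc1 and 9.24 ± 0.558 CPM in EV (0.83, SE 0.19, adjusted p = 0.0258, edgeR), a call lost in 4 of 6 libraries left out, and its value in positive cells was 0.30 (adjusted p = 0.327, edgeR).

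Among contactin-associated proteins, teneurins and the Sez6 family, 0 of 9 rose and 2 fell in shSmndc1, and 1 fell in positive and in negative cells. Tenm4, a teneurin that binds latrophilins across the synapse, stood at 36.1 ± 7.12 CPM in shSmndc1 and 86.8 ± 15.3 CPM in EV (log2 fold change -1.27, SE 0.18, adjusted p = 0.00722, edgeR), lost without EV replicate 3. It stood at 25.1 ± 8.56 CPM in positive cells (-1.32, adjusted p = 0.00742) and 30.9 ± 12.8 CPM in negative cells (-1.02, adjusted p = 0.0273, both by edgeR), against 62.6 ± 12.8 CPM in EV_RIP. The call held with each library left out in positive cells and was lost in 5 of 8 in negative cells. Cntnap1 also fell in shSmndc1 (-0.47, adjusted p = 0.0499, edgeR).

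**Figure D4:**
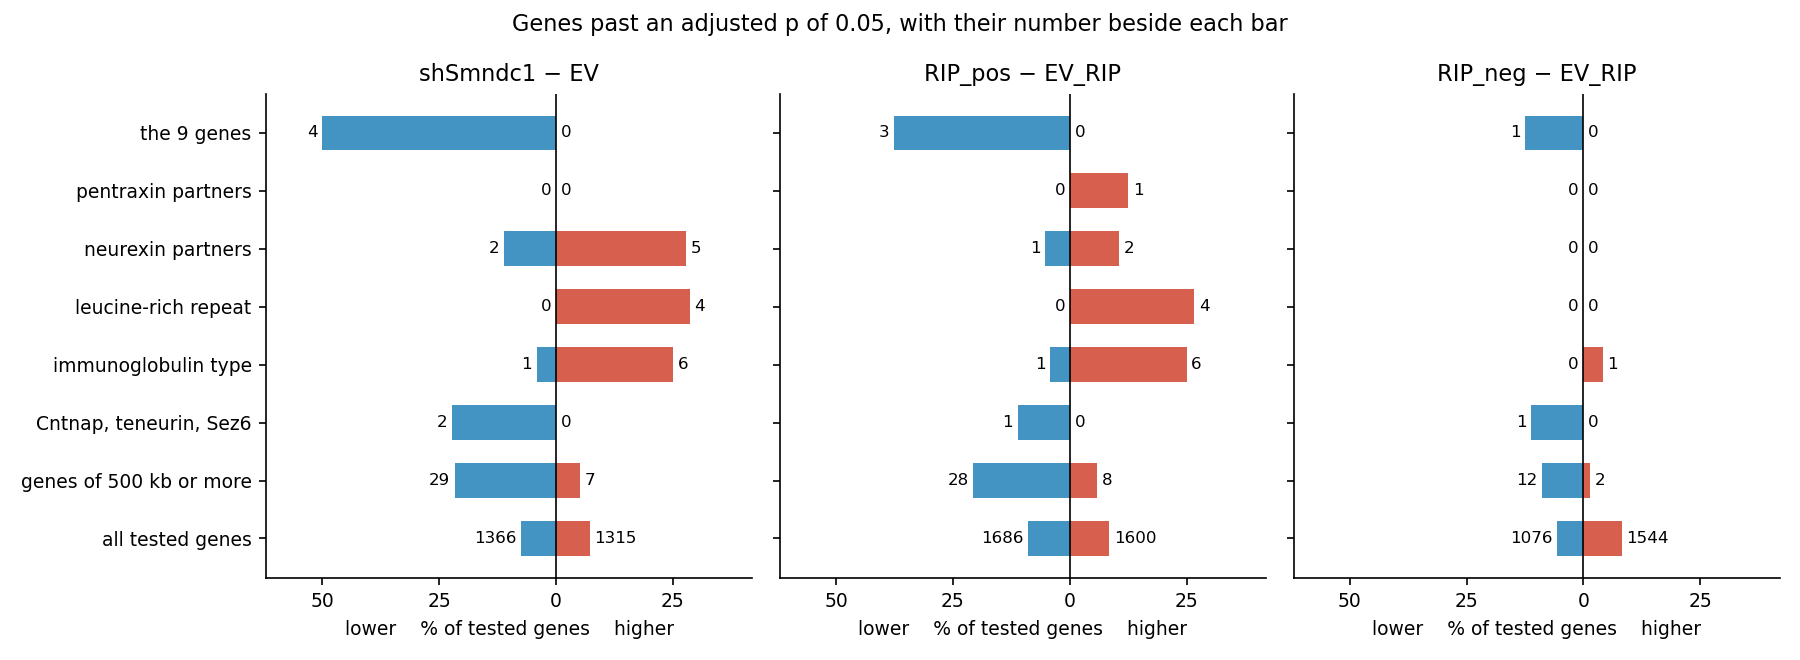
Percent of tested genes called lower and higher (adjusted p under 0.05, edgeR) in the 9 genes, in each list of partners without them and over all genes, for shSmndc1 against EV, positive cells against EV_RIP and negative cells against EV_RIP; numbers beside the bars are genes. The 9 genes hold 4, 3 and 1 lower genes and 0 higher, of which the 4 belong to the comparison that chose them, while the leucine-rich repeat list holds 4, 4 and 0 higher genes and 0 lower.

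Since 5 of the genes span at least 500 kb, other genes of that length were counted as well. Of 134 tested, 29 fell (21.6%) and 7 rose in shSmndc1, with a median log2 fold change of -0.30. Of 136, 28 fell (20.6%) and 8 rose in positive cells (median -0.25), and 12 fell (8.82%) and 2 rose in negative cells (median -0.15), beside 7.5%, 8.92% and 5.69% of all genes called lower. Of all protein-coding genes tested, 8.63%, 10.9% and 6.86% were called lower in the same order of comparisons. Leaving out single libraries moved the number that fell to between 0 and 34 in shSmndc1, 15 and 30 in positive cells and 1 and 27 in negative cells. As shares of the long genes tested, these ends were 0% and 24.5%, 10.5% and 22.1%, and 0.719% and 18.9%. The share of all genes called lower in the same fits was 0.587% and 9.65%, 3.14% and 9.40%, and 0.165% and 14.2%. Of the 5 long genes described here, Lsamp was called in positive cells and Ntm, Negr1, Opcml and Nrxn3 were not. Nptx1, with 9.04 kb, and Elfn2, with 51.4 kb, were called there.

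The genes most like Nptx1, Lsamp and Elfn2 were named by Pearson's r of log2 CPM (pseudocount 0.1), centred within each experiment, over 18 libraries, among 10143 genes with at least 5 CPM. The libraries share group and depth, so these are descriptions. Nptx1 was most like Ptprn, a dense-core vesicle protein (r = 0.974), Irak1, a kinase of interleukin signalling (0.973), and Galnt11, a glycosyltransferase (0.970), and Elfn2 was at rank 18 (0.945). Ptprn stood at 544 ± 110 CPM in shSmndc1 and 1409 ± 329 CPM in EV. Elfn2 was most like Wrn, a DNA helicase (0.962), Ift140, an intraflagellar transport protein (0.962), and Dock8, an exchange factor (0.961), with Nptx1 at rank 25. Lsamp was most like Tbce, a tubulin folding cofactor (0.973), Mtrr, methionine synthase reductase (0.943), and Xrcc4, a DNA end-joining factor (0.941), and its nearest members were Elfn2 at rank 88 (0.824) and Nptx1 at rank 249 (0.757).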

How the data were processed

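Whole-number counts per Ensembl gene and FPKM values were deposited by the authors, 1 table of each per experiment, and the count values carry no scaling. The submitters' processing notes name GRCm38/mm10, DESeq2 1.30.0, STAR 2.7.5a and Picard 2.19.2 without their roles, and per the labels' protocols stranded mRNA libraries were read as 75 bp pairs. No source used here gives the counting program, its strand setting or the length behind FPKM. Counts were analysed here in R 4.3.3 with edgeR 4.0.16: low genes were removed by filterByExpr, libraries scaled by TMM, and groups compared by the quasi-likelihood test (Benjamini-Hochberg over all genes tested, threshold 0.05). The 6 libraries of the first experiment made 1 fit and the 12 of the second another. SE is the absolute log2 fold change over the square root of F. CPM values use TMM-scaled library sizes and are given as mean ± SD. Limits for a count of 0 take 3 counts and cover counting error only.

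Same-numbered positive and negative libraries deviated together to unlike degrees (correlations 0.620, 0.355, 0.136 and 0.311 across genes), which is the only source of that pairing. Those with different numbers had -0.474 to 0.281. Alternatives were DESeq2 1.42.0, RLE scaling, no filter, a filter at 1 CPM, a replicate block and libraries left out. Named besides the 9 genes and Smndc1 were up to 4 called genes per list and comparison with the smallest p, and the 3 genes most like Nptx1, Lsamp and Elfn2. The genes, lists and tests were chosen with earlier results of these data known. Some further genes that the rule names are not reported here. The edgeR fit by group was run on simulated data with the same spread for all genes. Only shSmndc1 against EV and positive cells against EV_RIP were scored. The fits with a replicate block, the DESeq2 fits and the other comparisons were not tested in this way.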

Additional observations from a re-analysis of the deposited data

Results flagged for a closer look

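In groups of 4 libraries, 24 sets of values were searched for a library far from the others, and chance flags about 1 set in 20. Nptxr in positive replicate 1 stood at 114 CPM, while the other positive libraries lay between 86.4 and 89.6 CPM (gap over range 0.886). Lsamp in negative replicate 3 stood at 26.3 CPM, while the other negative libraries lay between 7.46 and 8.74 CPM (0.932). Lsamp in EV_RIP replicate 4 stood at 38.9 CPM, while the other EV_RIP libraries lay between 6.97 and 10.6 CPM (0.887). Negative replicate 3 was the shallowest library, with 8084574 counts, and the highest in Rn7sk, with 161 CPM, and EV_RIP replicate 4 had 51700357 counts and 13.0 CPM of Rn7sk. Whether depth or RNA quality plays a part was not tested.

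Positive and negative cells differed in the paired fit of their 8 libraries for Lsamp (log2 fold change of positive over negative cells -1.42, adjusted p = 0.00463), Elfn2 (-1.06, adjusted p = 0.00571) and Nptx1 (-0.68, adjusted p = 0.0188, all by edgeR). Each was lower in the positive library in 4 of 4 pairs. With the block over all 12 libraries none passed, with adjusted p = 0.143 for Lsamp, 0.150 for Elfn2 and 0.230 for Nptx1 (edgeR), and in the fit without the block leaving out any single positive or negative library called none of the 3. Without the filter on low counts Lsamp passed there (adjusted p = 0.0374, edgeR). Smndc1 averaged 20.1 CPM in positive and 37.0 CPM in negative cells (adjusted p = 0.127 without the block), and in negative cells its difference from EV_RIP did not pass either (adjusted p = 0.378, both by edgeR). The comparison is between sorted fractions and is no test of a difference in the effect of knockdown. Low values after knockdown took part in the choice of Lsamp, Elfn2 and Nptx1, so their adjusted p-values here are not independent evidence.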

How the results depend on the processing

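Calls over all genes moved with the settings. They numbered 4165 without the filter in shSmndc1 against EV, 5079 with the replicate block in positive cells against EV_RIP, and in negative cells against EV_RIP 4037 with DESeq2, 4597 with the replicate block, 1289 with only those groups in the fit, 271 without EV_RIP replicate 4 and negative replicate 3 (chosen after seeing the data) and 4 without negative replicates 3 and 4. Positive against negative cells gave 315 with DESeq2, 150 without the filter, 78 with the replicate block and 1517 with the block over 8 libraries. Single libraries left out gave 181 to 3336 in shSmndc1, 1258 to 3586 in positive cells, 159 to 5831 in negative cells and 0 to 517 between positive and negative cells.

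Of the 8 tested genes, leaving out single libraries gave 1 to 4 called in shSmndc1, 2 to 4 in positive cells, 0 to 2 in negative cells and 0 between the fractions. The counts in shSmndc1 belong to the comparison that chose the genes, so nothing is read from them. In negative cells 2 were called with the replicate block, where 11.5% of all genes were called lower. None, or 0, were called without negative replicates 3 and 4, where 0% of all genes were called lower. Without the filter 2 were called in negative cells, and the share of all genes in that fit is not given here. Between the fractions 1 was called without the filter (Lsamp, -1.57, adjusted p = 0.0374, edgeR) and 3 with the block over 8 libraries. Per kilobase of exon, 5 genes in shSmndc1 and 3 in positive cells kept their place in the level order. The replicate block added Nptxr in positive cells (-0.33, adjusted p = 0.0493) and negative cells (-0.37, adjusted p = 0.0353, both by edgeR) and changed no other call; same-numbered libraries of the other comparisons did not all deviate together.

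Signs turned in negative cells for Opcml (-0.064 without the filter, -0.26 without negative replicates 3 and 4, -0.035 without EV_RIP replicate 4 and negative replicate 3, and -0.50 to 0.32 with single libraries left out), Lsamp (-1.03 to 0.39) and Negr1 (0.014 without EV_RIP replicate 4 and negative replicate 3; -0.20 to 0.052), and between positive and negative cells for Ntm (-0.20 to 0.048) and Nptxr (-0.052 without negative replicates 3 and 4; -0.064 to 0.15). The cause was not tested. With Opcml at 259 counts and Nptx2 at 1, depth limits both.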

Other observations

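The genes most like Lsamp were high in the same libraries. In EV_RIP replicate 4, Tbce stood at 42.3 CPM, Mtrr at 53.8 CPM and Xrcc4 at 17.7 CPM, while the other EV_RIP libraries lay at 23.7 to 28.1, 33.0 to 41.7 and 9.01 to 12.1 CPM. In negative replicate 3 they stood at 34.9, 47.4 and 15.03 CPM, while the other negative libraries lay at 24.7 to 28.3, 30.5 to 37.2 and 7.80 to 11.6 CPM. These genes were chosen for that likeness, so the values are a description.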
